A study of Mus musculus with 2 samples.

Results

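The Myh4-positive myocytes are 492 cells of a culture of induced myogenic progenitor cells (iMPCs). They hold RNA of the fast myosin heavy chain gene Myh4 together with RNA of muscle creatine kinase (Ckm). They were selected on measured values: a cell had to hold at least 5 UMIs of Ckm and at least 2 UMIs of Myh4, where a UMI (unique molecular identifier) stands for 1 captured RNA molecule. They made up 5.26% of the 9349 iMPC cells that passed the filters (exact binomial 95% interval 4.82 to 5.73, counting error only), of 15361 filtered cells in the whole series. Because Ckm and Myh4 chose the cells, every difference between these cells and the rest of the same library is given below as a description, without a test.

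The study measured RNA in cells of 2 cultures, each prepared as 1 library with droplet-based 3′ single-cell sequencing. Mouse embryonic fibroblasts (MEF) of the genotype Tg:Pax7-nGFP/C57BL6;DBA2, which carry a nuclear green fluorescent reporter of Pax7, were grown in MEF media. The iMPCs have the same genotype and were derived from such fibroblasts by MyoD with the F/R/C treatment, a combination the labels do not spell out, and were kept in medium with F/R/C. The series describes the iMPCs as a stable clone, so the 492 cells come from 1 culture of 1 clone and their number says nothing about the spread between clones or cultures. The ages of the animals behind the fibroblasts are not given in the sources used here.

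Skeletal muscle cells mature in steps. Myoblasts that express MyoD and myogenin leave the cell cycle, fuse and assemble sarcomeres with embryonic (Myh3) and then neonatal (Myh8) myosin, and fast fibres later replace these with adult isoforms, of which Myh4 encodes the fastest, IIb. Ckm buffers ATP in the contracting fibre. Alongside them the fibre makes proteins that store and release calcium, such as calsequestrin (Casq1), and proteins of the Z-disc, such as calsarcin-2 (Myoz1), while Fbp2 is the muscle form of fructose bisphosphatase.

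The 250 bases before the annotated start of the genes that define these cells are shown because the cells were named by these genes' RNA. The sequences are from RefSeq (GRCm38.p6), read 5′ to 3′ on the gene's strand, and 4 of the 5 marker genes matched an entry (Myoz1 had none). They are Myh4 at chr11:67237562-67237811 (plus strand), Ckm at chr7:19410844-19411093 (plus strand), Casq1 at chr1:172219896-172220145 (minus strand) and Fbp2 at chr13:62858401-62858650 (minus strand). The starts are those of RefSeq and differ from the GENCODE gene positions given below. By GENCODE the Ckm window lies within the gene and the Fbp2 window overlaps the start of its gene. The Myh4 and Casq1 windows end short of theirs. Capitals mark matches on either strand to the core promoter motif TATAAA, to the E-box bound by MyoD and myogenin (CANNTG) and to the site of MEF2 factors, searched by its consensus.
Myh4: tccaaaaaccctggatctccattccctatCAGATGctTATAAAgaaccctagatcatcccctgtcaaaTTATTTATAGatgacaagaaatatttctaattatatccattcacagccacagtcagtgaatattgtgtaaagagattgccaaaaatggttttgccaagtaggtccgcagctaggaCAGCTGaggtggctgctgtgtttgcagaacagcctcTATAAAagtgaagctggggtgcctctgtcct
Ckm: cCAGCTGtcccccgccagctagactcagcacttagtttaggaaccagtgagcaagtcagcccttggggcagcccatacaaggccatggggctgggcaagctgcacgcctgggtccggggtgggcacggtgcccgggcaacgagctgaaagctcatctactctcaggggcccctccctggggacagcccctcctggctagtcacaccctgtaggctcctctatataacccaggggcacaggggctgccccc
Casq1: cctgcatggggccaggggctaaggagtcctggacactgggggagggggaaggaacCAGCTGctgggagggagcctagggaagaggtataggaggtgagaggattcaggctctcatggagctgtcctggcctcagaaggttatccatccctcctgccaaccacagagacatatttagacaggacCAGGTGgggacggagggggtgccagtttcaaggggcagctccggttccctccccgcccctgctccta
Fbp2: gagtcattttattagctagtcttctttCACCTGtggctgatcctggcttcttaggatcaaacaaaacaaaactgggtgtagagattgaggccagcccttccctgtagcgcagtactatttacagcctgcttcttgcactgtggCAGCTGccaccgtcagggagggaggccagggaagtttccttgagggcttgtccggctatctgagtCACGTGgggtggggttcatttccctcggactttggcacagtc
Counting the annotated start base as 0, the Myh4 window held TATAAA matches whose lowest base lies at -213, -179 and -31, E-boxes at -221 and -67, and a MEF2 site at -182 that overlaps the match at -179. Ckm held an E-box at -249, Casq1 held them at -195 and -67, and Fbp2 at -223, -107 and -42. Of 32851 windows of the same length, 66.2% held at least 1 E-box, 12.4% a TATAAA match and 2.92% a MEF2 site. A match is a description of the letters and was not tied to binding in these data.

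The same rule found 0 cells among 6012 filtered MEF cells, which allows a share of up to 0.0499%. These MEF cells, with 118284766 UMIs in all, held 0 UMIs of Ckm, Myh4 and Myoz1, 7 of Casq1 and 2 of Fbp2. The MEF library held 118541302 UMIs over 6113 listed barcodes and the iMPC library 282903287 over 6794880. Filtered cells of the libraries shared 16 barcodes, of which 0 belonged to the Myh4-positive myocytes.

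These cells were deep, which the rule on raw UMIs favours. They held between 15122 and 147040 UMIs, with a median of 50436 (95% interval of the median 47960 to 53388), against a median of 20229 in the other 8857 filtered iMPC cells. They made 11.8% of the UMIs of all filtered iMPC cells. The median number of genes with a UMI was 5433.5 in them and 4029 in the others. Further comparison sets were used besides all other cells, to place the Myh4-positive myocytes along differentiation: 647 early cells with at least 5 UMIs of Myh3, at most 1 of Ckm and 0 of Myh4 (median 26081 UMIs), 386 cells with at least 5 UMIs of Ckm and 0 of Myh4 (median 32798), and 159 cells with at least 5 of Ckm and 1 of Myh4 (median 40587). Levels are given as CPM, the UMIs of a gene summed over a set and scaled to a common total of 1000000 UMIs per set, with exact Poisson intervals that cover counting error only. In 3′ counting a CPM is not scaled by gene length.

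**Figure D1:**
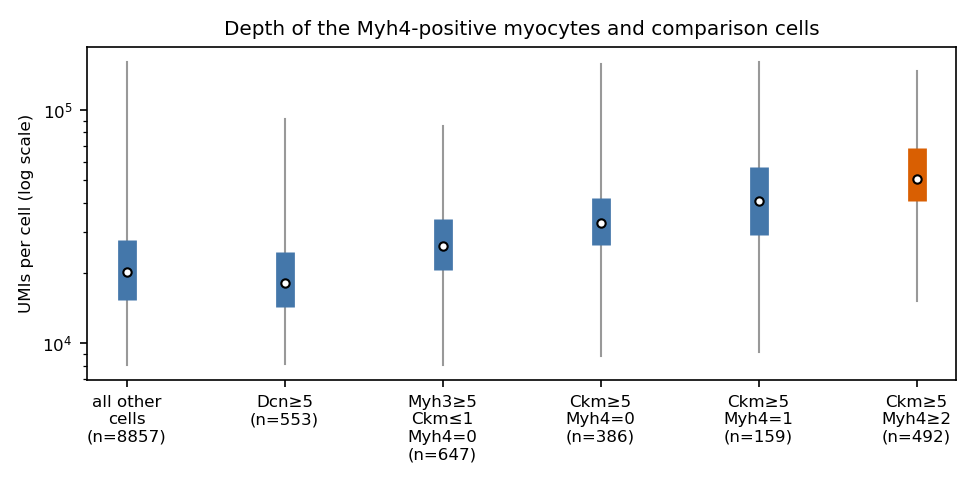
UMIs per cell on a log axis for all other filtered iMPC cells, cells with at least 5 Dcn UMIs (a fibroblast gene), and the steps from early Myh3 cells to the Myh4-positive myocytes (orange). Circles are medians, thick bars span the quartiles and thin lines the lowest to the highest cell; the Myh4-positive myocytes have the highest median, 50436.

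Mitochondrial RNA and ribosomal protein RNA moved with the sets. The median share of mitochondrial UMIs was 4.08% in early cells, 4.74% in Ckm cells without Myh4, 5.54% in cells with 1 Myh4 UMI and 7.53% in the Myh4-positive myocytes. Ribosomal protein genes took 28.6%, 26.2%, 24.1% and 21.4% of UMIs in the same order. Their part in the differences below was not tested.

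The marker genes had the following values in the Myh4-positive myocytes. Myh4 (11:67238029-67260446, plus strand) had 2 UMIs in the lowest cell, 8 in the median cell and 181 in the highest, and the highest 50 cells held 47.0% of its UMIs. Ckm (7:19404776-19422841, plus strand) had 5, 18 and 216. Their summed levels were 330 CPM for Myh4 (323 to 337) and 469 CPM for Ckm (460 to 477), against 11.0 and 46.2 CPM in the other cells, a difference set by the rule.

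Casq1, Myoz1 and Fbp2 were not used by the rule but are read from the same cells. Casq1 (1:172209894-172219868, minus strand), the calcium buffer of the fast sarcoplasmic reticulum, had 0 UMIs in the lowest member, 27 in the median and 78 in the highest, and 98.0% of members had a UMI. Its level was 500 CPM (491 to 508), compared with 107 CPM in Ckm cells without Myh4 and 51.5 CPM in all other cells, 4.67-fold and 9.71-fold higher. Myoz1 (14:20649107-20656540, minus strand) had 0, 14 and 123 UMIs in the lowest, median and highest member, and its level of 318 CPM was 8.36-fold that of Ckm cells without Myh4 (38.0 CPM). Fbp2 (13:62836877-62858422, minus strand) was the sparsest: its median member had 0 UMIs, the highest had 39, and 43.9% of members had a UMI. Its level was 34.6 CPM against 4.81 in Ckm cells without Myh4 and 2.25 in all other cells. With levels this different, a member with 0 UMIs of the sparse Fbp2 cannot be told from a member that missed it at its depth.

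With every cell thinned to 8036 UMIs, 91.5% of the Myh4-positive myocytes kept a Casq1 UMI, compared with 26.9% of Ckm cells without Myh4 and 6.69% of 553 cells with at least 5 UMIs of Dcn, a fibroblast gene in cells that should lack Casq1. Without thinning the shares were 98.0%, 44.8% and 12.5%, at median depths of 50436, 32798 and 18064 UMIs. For Myoz1 the thinned shares were 72.6%, 16.6% and 3.80%, and for Fbp2 17.1%, 2.33% and 0.542%. Barcodes below the depth of cells carried these transcripts too: 48846 iMPC barcodes of 200 to 600 UMIs held Myoz1 at 124 CPM and Casq1 at 156 CPM. At their median of 430 UMIs that comes to 0.0535 UMIs of Myoz1 and 0.0671 of Casq1 per barcode. Among the cells with at least 5 Dcn UMIs, 11 (1.99%) met the rule for the Myh4-positive myocytes.

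Beyond the markers, the genes with the largest ratio to all other cells were led by Tmod4 and Pvalb. Tmod4, the skeletal tropomodulin that caps thin filaments, stood at 53.6 CPM against 3.29, 16.3-fold higher. Pvalb, the calcium-binding parvalbumin of fast fibres, stood at 221 CPM against 15.2, 14.6-fold higher. Next came the myospryn gene Cmya5 at 11.7-fold, the Z-disc gene Myot (myotilin) at 10.9-fold, the surface glycoprotein gene Cd24a at 10.7-fold and Mlf1 (myeloid leukaemia factor 1) at 10.6-fold. Ckmt2, the mitochondrial creatine kinase of muscle, was 10.5-fold higher and Sypl2 (mitsugumin 29, at the triad) 10.2-fold. Of 7837 genes that reached 10 CPM in the higher set, 721 (9.20%) were at least 2-fold higher and 1912 (24.4%) at least 2-fold lower in the Myh4-positive myocytes. Of the 218 such genes on the lists of muscle, regulator, cell cycle and stress genes, leaving out Ckm and Myh4, 129 were at least 2-fold higher and 41 at least 2-fold lower, with a median log2 ratio of 1.48 beside -0.36 for all genes. In UMIs per cell these counts were 161 and 25. Among cells within the quartiles of the members' depth, 246 members and 588 others, 72 list genes were at least 2-fold higher. Those 588 held 87 Ckm cells without Myh4, 60 Ckm cells with 1 Myh4 UMI and 80 early cells. Another 91 had at least 2 Myh4 UMIs but under 5 of Ckm. Over all 8857 others these numbers were 386, 159, 647 and 228, so the mix of cells changed along with depth. The parts of depth and of this mix were not told apart. The log2 ratios of the genes named above were smaller at that matched depth, at 2.87 for Tmod4 (4.03 over all cells), 2.79 for Pvalb (3.87), 2.56 for Myoz1 (3.95), 2.23 for Cmya5 (3.55) and 1.88 for Casq1 (3.28), while that of Mlf1 was 3.08 (3.41).

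By role, all 27 Z-disc, M-band and scaffold genes that were measured and all 22 of excitation-contraction coupling were at least 2-fold higher than in the other cells. So were 6 of 8 myosin heavy chains, 5 of 8 myosin light chains, 9 of 13 genes of the thin filament, 17 of 27 energy enzymes and 9 of 13 genes of the dystrophin complex and membrane. The share over all genes was 9.20%. Summed over 62 muscle genes of the contractile lists, sarcomere RNA took 12.7% of the UMIs of these cells, 8.55% in Ckm cells without Myh4, 4.60% in early cells and 2.76% in all other cells. In UMIs per cell these are 7083, 3131, 1306 and 640.1.

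The genes with the largest ratio in the other direction were led by histone, mitosis and replication genes, with Pax7 and Csrp2 also among the 10. Top2a, the topoisomerase of dividing cells, stood at 18.97 CPM against 237, 12.5-fold lower, and Mki67 at 7.90 against 93.1. The replication-dependent histone genes Hist1h1b (20.7-fold lower) and Hist1h2ae (12.7-fold) are members of a family of near-identical copies, so their single levels are uncertain. Hmmr and Cdca3, both of mitosis, were 12.7-fold and 12.1-fold lower, the cyclin gene Ccnb1 11.2-fold, the replication factor gene Pclaf 11.2-fold and the LIM protein gene Csrp2 10.9-fold. Pax7, the transcription factor of satellite cells, stood at 4.35 CPM (3.60 to 5.21) against 50.5, 11.6-fold lower. All 15 measured cell cycle genes and all 7 measured fibroblast markers were at least 2-fold lower, beside 24.4% of all genes.

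What remained of Top2a RNA lay mostly in few cells. Of 519 Top2a UMIs, 86.9% came from 48 members with 3 or more, a set chosen by that same count. Without thinning, 21.5% of members had a UMI of Top2a, 14.0% of Mki67 and 34.1% of Cdk1. Of the 48 members, 29 were among the 41 (8.33%) that Scrublet, a doublet caller, marked. The marked members had a median of 69846 UMIs against 49056 in the unmarked, Dcn at 94.0 against 1.96 CPM, Pax7 at 19.9 against 2.57 CPM, Top2a at 111 against 8.43 CPM, and Myoz1 at 168 against 335 CPM. With the marked cells left out of every set, 131 list genes in place of 129 were at least 2-fold higher than in the other cells.

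The marker lists of other cell types differed in their summed level. Summed levels of the endothelial (5 genes), immune (6), glial (5), adipocyte (5) and epithelial (4) lists lay between 0.877 and 1.83 CPM in the Myh4-positive myocytes, with Kdr, Tie1, Ptprc, Tyrobp, Cidec and Epcam at 0. The cardiac list summed to 4.20 CPM over 6 genes, with the cardiac myosin gene Myh6 at 2.23 CPM. The 12 fibroblast markers summed to 147 CPM against 1115 in the other cells, led by Col3a1 at 78.8 CPM, with Dcn at 11.4. The 10 satellite cell markers summed to 307 CPM against 456 in the other cells and 289 in Ckm cells without Myh4. In CPM 4 of the 7 measured were at least 2-fold lower than in the other cells and 0 higher, beside 24.4% and 9.20% of all genes. In UMIs per cell 3 were lower and 2 higher by that much. The 4 neuron markers summed to 30.6 CPM against 63.1, nearly all of it the tubulin gene Tubb3 at 29.8. The 5 smooth muscle markers summed to 332 CPM against 777 in all other cells and 1666 in Ckm cells without Myh4, led by Acta2 at 282, with Cnn1 and Myh11 at 0.110 and 0.694. Members had a mean of 55602 UMIs against 23188 in all other cells. In UMIs per cell the satellite cell, neuron and smooth muscle sums were therefore higher in members than in all other cells.

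The comparison with the 386 Ckm cells without Myh4 sets the members beside cells that had already switched on creatine kinase. Far fewer genes passed 2-fold here: 315 of 6704 (4.70%) were higher and 228 (3.40%) lower, with a median log2 ratio of -0.04. Among the 204 list genes, 37 were at least 2-fold higher and 12 lower, with a median log2 ratio of 0.30. In UMIs per cell in place of CPM these counts were 86 and 4, a setting chosen after seeing the data. Ckm itself differed by 1.47-fold.

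The higher genes of this comparison were led by Mlf1 (67.9 against 7.36 CPM, 9.23-fold), Myoz1, Pvalb (7.96-fold) and Tmod4 (7.43-fold). Then came Cd24a (5.85-fold), the secreted glutathione peroxidase gene Gpx3 (5.68-fold), Myot (5.04-fold), Rgcc (4.72-fold), the interleukin-11 receptor gene Il11ra1 (4.67-fold) and Casq1. Il11ra1 has a near-identical copy in the mouse, so its level is uncertain. With the rule applied to counts thinned to 8036 UMIs in every cell, which leaves 99 cells, the log2 ratios of these genes were smaller but positive: 1.82 for Myoz1 (3.06 as selected), 1.51 for Tmod4 (2.89) and 1.22 for Casq1 (2.22). For Fbp2 the log2 ratio of 2.85 became 1.52 when the rule was read from a random part of each cell's UMIs and the level from the remainder.

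**Figure D2:**
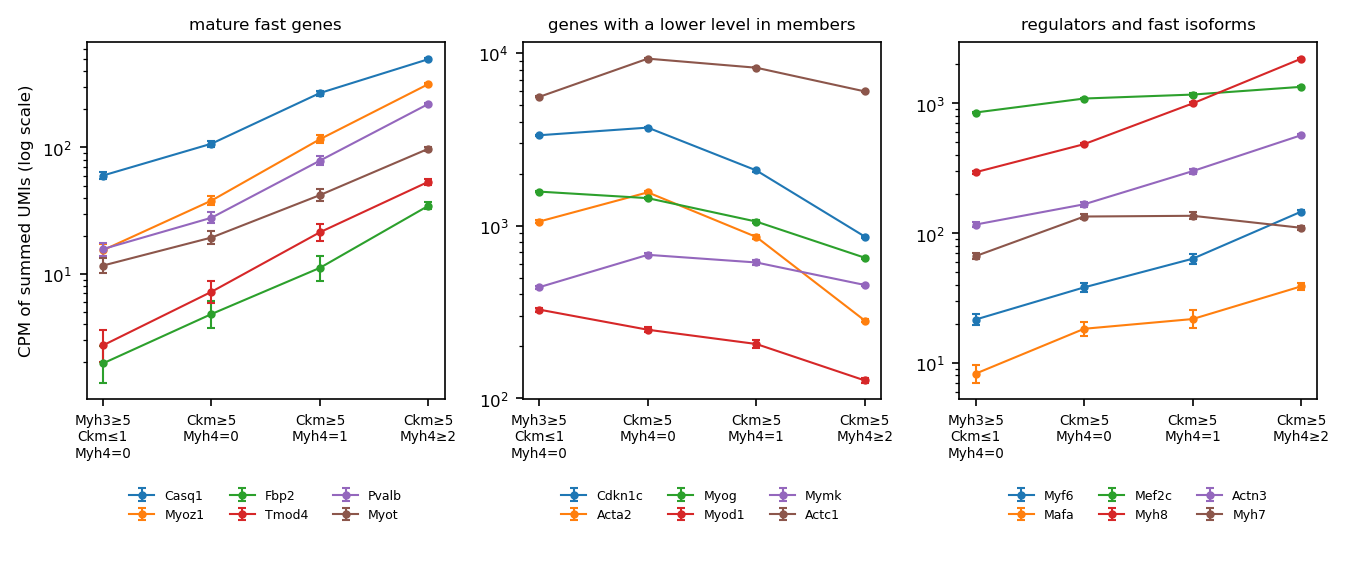
Levels (CPM of summed UMIs, log axis) of named genes in early cells with Myh3 (n = 647 cells), Ckm cells without Myh4 (386), Ckm cells with 1 Myh4 UMI (159) and the Myh4-positive myocytes (492); error bars are exact Poisson 95% intervals. Casq1 is higher in each next set, from 60.0 to 500 CPM, while Cdkn1c goes from 3331 through 3688 to 863 CPM and Myh7 stays between 66.5 and 136 CPM.

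Structural genes were the most frequent among the 37. In the Z-disc, M-band and scaffold list 11 of 27 measured genes were at least 2-fold higher and 0 lower, with a median log2 ratio of 0.89. The shares over all genes were 4.70% and 3.40%. The fast alpha-actinin gene Actn3 was 568 CPM against 167, the titin cap gene Tcap 233 against 63.3, the myosin-binding protein gene Mybpc1 439 against 150 and Ankrd2, a stretch-responsive ankyrin repeat gene, 168 against 48.4. Other genes of this list differed little: Mybph was 346 against 399 CPM, Flnc (filamin C) 303 against 292 and Cryab, a small heat shock protein gene, 1754 against 1654.

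Excitation-contraction coupling was more even, where 4.70% of all genes were at least 2-fold higher and 3.40% lower. Here 4 of 22 measured genes were at least 2-fold higher and 0 lower, among them Casq1, Pvalb and Cacna1s (75.4 against 29.5 CPM), the voltage sensor of the calcium channel. The calcium release channel gene Ryr1 was 193 against 104 CPM and the fast calcium pump gene Atp2a1 814 against 457. Sarcolipin (Sln), an inhibitor of that pump, was lower at 75.2 against 120 CPM. The cardiac and slow calsequestrin gene Casq2 was 646 against 457 CPM, so the Casq1 share of the UMIs of both calsequestrins was 43.6% (43.1 to 44.2) in the Myh4-positive myocytes, 31.6% in cells with 1 Myh4 UMI, 19% in Ckm cells without Myh4 and 21.4% in early cells.

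Energy genes included 9 of 27 at least 2-fold higher and 1 lower, beside 4.70% and 3.40% of all genes. The lower gene was Ckb, the brain form of creatine kinase, at 109 against 232 CPM. Car3, the carbonic anhydrase of muscle, was the most abundant of the higher genes at 3166 CPM against 946. Myoglobin (Mb) was 407 against 144 CPM, the glycogen phosphorylase gene Pygm 149 against 63.7 and the muscle cytochrome oxidase subunit gene Cox7a1 168 against 50.3. The muscle forms also held larger shares of isoform pairs. Eno3 made 78.5% of the UMIs of Eno3 and Eno1 in these cells, 62.9% in Ckm cells without Myh4 and 41.6% in early cells, and Cox6a2 made 72.3%, 61.3% and 43.7% of those of Cox6a2 and Cox6a1.

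Some lists had few genes or none past 2-fold in CPM, where 4.70% of all genes were higher and 3.40% lower. Of the 3 fast troponin genes 0 reached it in CPM and 2 did in UMIs per cell: Tnnt3 was 3692 against 2738 CPM, Tnni2 3012 against 2293 and Tnnc2 9634 against 5419, and their sum was 908 against 383 UMIs per cell. The slow troponin gene Tnni1 was 4136 against 3632 CPM, and the Tnni2 share of both troponin I genes was 42.1% against 38.7%. In the dystrophin complex and membrane list 0 of 13 genes passed 2-fold in either direction in CPM, and 5 were higher by that much in UMIs per cell. Of 8 measured fusion and adhesion genes, 0 were at least 2-fold higher and 1, Jam3, was lower by that much. Among them Mymk (myomaker) was 453 against 677 CPM and Mymx (myomixer) 210 against 344. In UMIs per cell Mymk was 25.2 against 24.8.

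**Figure D3:**
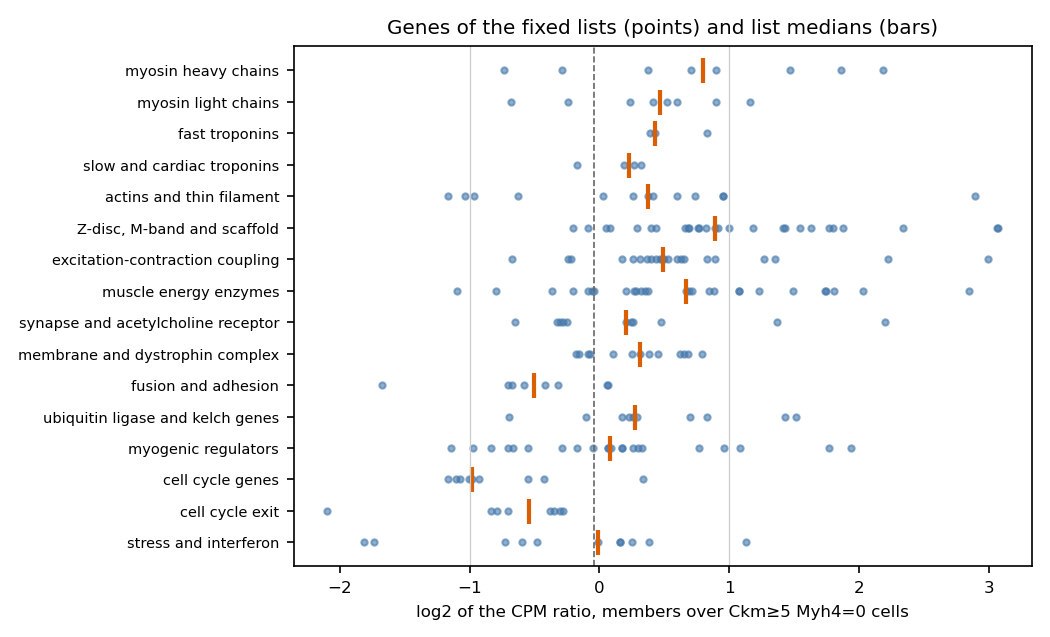
Log2 ratio of CPM, Myh4-positive myocytes over Ckm cells without Myh4, for genes that reached 10 CPM in the higher set (points) grouped by list, with Ckm and Myh4 left out. Orange bars are list medians, the dashed line is the median of all 6704 genes (-0.04) and grey lines mark 2-fold; the Z-disc list has a median of 0.89, the cell cycle list of -0.98.

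Genes that were lower than in Ckm cells without Myh4 were led by Acta2, the smooth muscle actin that is also transient in young myocytes. It had 282 CPM against 1556 (5.53-fold), with 0 UMIs in 165 members, a median of 1 and a highest value of 278. The highest 50 members held 65.6% of its UMIs. The caveolar coat gene Cavin2 was 5.51-fold lower, Ecrg4 4.80-fold, the alcohol dehydrogenase gene Adh7 4.25-fold and the stress gene Nupr1 4.11-fold. Psph, an enzyme of serine synthesis, was 3.71-fold lower, the hormone gene Fgf21 3.67-fold, the lamin gene Lmnb2 3.65-fold and the calponin gene Cnn2 3.54-fold. All 10 of the most reduced genes were also lower in UMIs per cell.

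Cdkn1c, the cell cycle inhibitor p57, was the most abundant gene among these. Its level was 863 CPM (852 to 874) in the Myh4-positive myocytes, 2084 in cells with 1 Myh4 UMI, 3688 in Ckm cells without Myh4 and 3331 in early cells. Members differed widely, from 0 to 765 UMIs with a median of 11, and 122 of the 492 had 50 or more. Per cell this is 48.0 UMIs against 135 in Ckm cells without Myh4 and 30.5 in all other cells, so that against all other cells the direction turns between CPM (863 against 1316) and UMIs per cell. Another inhibitor, Cdkn1a (p21), was 1219 against 1484 CPM in Ckm cells without Myh4, and 67.8 against 54.3 UMIs per cell.

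The myogenic regulators did not move together. Myf6 (MRF4), the late regulator, was 146 CPM in the Myh4-positive myocytes against 38.2 in Ckm cells without Myh4, 21.6 in early cells and 17.0 in all other cells. Myog (myogenin) was 651 against 1440 and 1571 CPM in the same Ckm and early cells, and Myod1 127 against 249 and 326 CPM. In UMIs per cell Myog was 36.2 against 52.7 in Ckm cells without Myh4 and 13.0 in all other cells. The large Maf genes, whose factors are known to activate Myh4, were higher: Mafa 38.9 against 18.3 CPM and Maf 10.9 against 3.18. Mef2c was 1339 against 1088 CPM and Mef2a 225 against 367. Of 22 measured regulators 3 were at least 2-fold higher than in Ckm cells without Myh4 and 1 lower, beside 4.70% and 3.40% of all genes.

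The heavy chain genes show how far the switch to adult myosin had gone. In the Myh4-positive myocytes Myh3 made 39.8% of the UMIs of Myh3, Myh8, Myh1, Myh2, Myh4 and Myh7, Myh8 made 36.6%, Myh1 (IIx) 15.1%, Myh4 5.48% (5.37 to 5.59), Myh7 (slow) 1.82% and Myh2 (IIa) 1.18%. In Ckm cells without Myh4 the shares were 65.7% for Myh3, 17.2% for Myh8, 11.6% for Myh1 and 4.77% for Myh7. The 6 genes together stood at 6027 CPM in the Myh4-positive myocytes, 2816 in Ckm cells without Myh4 and 1579 in early cells. Myosin heavy chain genes are similar in sequence and reads can be split between them, so the level of a single member is uncertain.

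**Figure D4:**
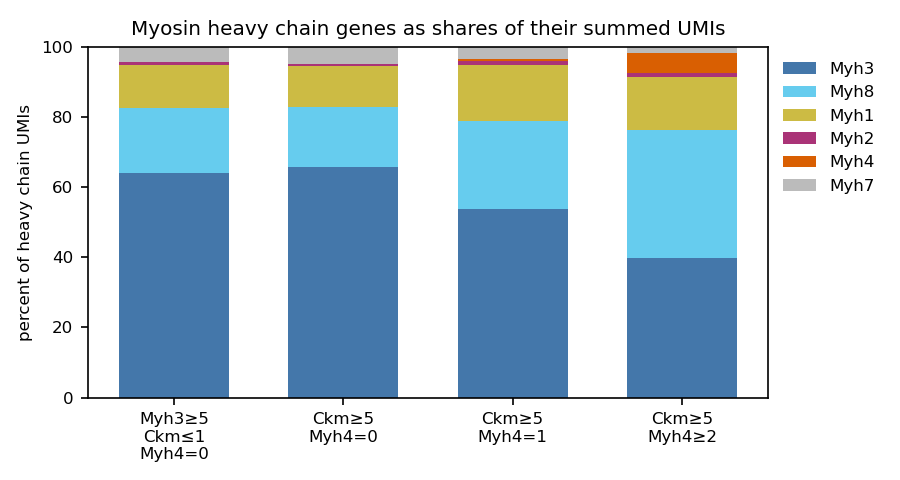
Stacked bars of the share of each gene in the UMIs of 6 myosin heavy chain genes, from early cells with Myh3 to the Myh4-positive myocytes. Myh3 goes from 64.0% to 39.8% of the bar and Myh8 grows from 18.7% to 36.6%. Myh4 is 5.48% of the last bar, and its difference from the earlier bars is set by the rules of the sets.

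Myh8 gained the largest share. Its level was 2207 CPM against 485 in Ckm cells without Myh4, 4.55-fold higher, and every member had Myh8 UMIs (3 in the lowest, 109 in the median, 431 in the highest). Myh3 was 2399 against 1850 CPM, with a median of 121.5 UMIs per member. Myh1 was 910 against 328 CPM, Myh2 71.3 against 19.6 and Myh7 110 against 134.

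Adult and developmental myosins were found in the same cells. All of Myh3, Myh8, Myh1 and Myh4 were present in 484 of the 492 members (98.4%). The most abundant heavy chain was Myh3 in 260 members (52.8%), Myh8 in 181, Myh1 in 37 and Myh4 in 7, with 7 ties. The Myh4 share of a member's heavy chain UMIs had a median of 2.79% (quartiles 1.37 and 7.01) and reached 43.9% in the highest, and 25 members had more Myh4 than Myh3. No member (0 of 492) had Myh4 at over 50% of these UMIs. Against the word mature in their name, developmental isoforms led the heavy chain RNA of most members. Among the 228 cells with at least 2 Myh4 UMIs but under 5 of Ckm, Myh4 was the most abundant in 9 (3.95%), against 1.42% of members.

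The skeletal genes of this family lie side by side on chromosome 11, all on the plus strand, in the order Myh3 (67078300-67102291), Myh2 (67171027-67197517), Myh1 (67200052-67224575), Myh4 (67238029-67260446), Myh8 (67277124-67308634) and Myh13 (67321658-67371586), in GRCm38. Levels in the Myh4-positive myocytes along this order were 2399, 71.3, 910, 330, 2207 and 0.402 CPM. Position in the cluster therefore did not order the levels. Slow Myh7 and cardiac Myh6 lie on chromosome 14.

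The actin isoforms differed too. Acta1, skeletal actin, stood at 16145 CPM against 10697 in Ckm cells without Myh4, and Actc1, cardiac actin, at 5974 against 9246. Per cell Actc1 was close to level, with 163426 UMIs over 492 members and 130695 over 386 Ckm cells without Myh4. Acta1 made 73.0% of the UMIs of Acta1 and Actc1 in members (72.9 to 73.1). Its share was 63.9% in cells with 1 Myh4 UMI, 53.6% in Ckm cells without Myh4 and 45.1% in early cells. The cytoplasmic actin gene Actb was 311 CPM against 700 and, in all other cells, 1697. These genes are also close copies of each other, and the caution on single members holds for them.

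In the synapse list 2 of 11 measured genes were at least 2-fold higher than in Ckm cells without Myh4 and 0 lower, with a median log2 ratio of 0.20, and 5 of the 11 were lower by any amount. Over all genes 4.70% were at least 2-fold higher and 3.40% lower. Chrng, the gamma subunit of the embryonic receptor, was 226 CPM, while Chrne, the epsilon subunit that replaces it in innervated muscle, had 5 UMIs in all members (0.183 CPM). Chrng was 188 CPM in Ckm cells without Myh4. The genes past 2-fold were the acetylcholinesterase gene Ache, at 29.2 against 6.37 CPM, and its collagen tail gene Colq, at 28.4 against 11.0. The receptor subunit gene Chrna1 was 552 against 466 CPM, Musk, the kinase that gathers receptors, 54.6 against 39.2, and Dok7, its activator, 17.7 against 27.9.

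Members differed among themselves along Myh4. They were divided by raw Myh4 UMIs into cells with 2 (67 cells), 3 to 4 (91), 5 to 9 (110), 10 to 19 (92) and 20 to 181 (132), with median depths of 46102, 48678, 56578.5, 53279 and 51086.5 UMIs. Across these bins Myoz1 was 132, 195, 252, 360 and 533 CPM. Pvalb went from 64.8 to 391 CPM, Casq1 from 321 to 634, Myh8 from 1420 to 2887 and Myf6 from 59.8 to 241, each higher in every next bin.

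Other genes were lower in each next bin. Cdkn1c was 1449, 1139, 918, 705 and 422 CPM, Myog went from 992 to 408, Acta2 from 553 to 115 and Myod1 from 181 to 98.1. Myh7 was 156 CPM in the lowest bin and 61.7 in the highest, with its highest value of 165 in the bin of 3 to 4. Myh3 was level, at 2318 CPM in the lowest bin and 2319 in the highest, and so was Chrng, at 209 and 233. The share of mitochondrial UMIs was 6.24% in the lowest bin and 8.54% in the highest.

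**Figure D5:**
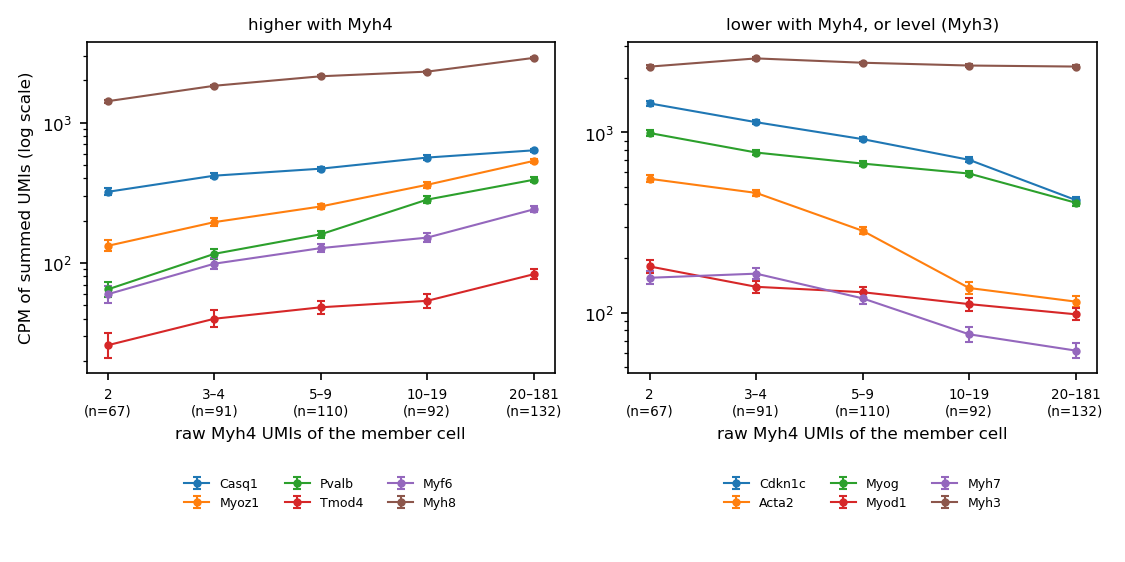
Levels (CPM of summed UMIs, log axis) in the Myh4-positive myocytes divided by their raw Myh4 UMIs, with exact Poisson 95% intervals. Casq1, Myoz1, Pvalb, Tmod4, Myf6 and Myh8 are higher in each bin to the right, Cdkn1c, Acta2, Myog and Myod1 are lower in each, and Myh3 stays between 2318 and 2574 CPM.

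Cell by cell, Spearman's rho of each gene's CPM with Myh4's CPM was computed over the 492 members for 2211 genes, as a description. The cells share 1 library and the values share their depth. The median rho was -0.02, that of depth -0.30 and that of the mitochondrial share 0.43. The genes most like Myh4 were Myoz1 (0.52), Cmya5 (0.48), Actn3 (0.48), Pygm (0.47), Casq1 (0.45), Mybpc1 (0.44) and Pvalb (0.44), followed by 3 mitochondrial genes, Ckm (0.42), Atp2a1 (0.40), Tpm1 (0.40) and Myh8 (0.40). With each member thinned to 15122 UMIs, every one of these values was smaller: 0.42 for Myoz1, 0.33 for Cmya5, 0.41 for Actn3, 0.35 for Pygm, 0.32 for Casq1, 0.33 for Mybpc1, 0.38 for Pvalb, 0.33 for Ckm and 0.34 for Myh8. The lowest values were those of ribosomal protein genes, with Rps6 at -0.48 and Rps23 at -0.47. Among other genes Myog (-0.38), Myh7 (-0.36) and Cdkn1c (-0.31) were low, while Myh3 was at 0.01.

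Several genes were carried by a part of the members. Pvalb had 10 or more UMIs in 160 of 492 cells and 0 in 173, with a highest value of 140, and its highest 50 cells held 53.4% of its UMIs. Mlf1 had 0 UMIs in 201 members and 59 in the highest, and Gpx3 0 in 166 and 106 in the highest. In contrast Myh8 had 10 or more UMIs in 487 members and Casq1 in 436.

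Values next to the rule's thresholds differed between genes. Just inside, the 67 cells with at least 5 Ckm UMIs and 2 of Myh4 had Casq1 at 321 CPM, Myoz1 at 132, Fbp2 at 24.8 and Cdkn1c at 1449. Just outside, the 159 cells with 1 Myh4 UMI had 270, 116, 11.2 and 2084. On the Ckm side, 28 cells with 5 Ckm UMIs had Casq1 at 538 CPM, Myoz1 at 254 and Cdkn1c at 625, and 40 cells with 4 had 388, 222 and 1168. A further 228 cells had at least 2 Myh4 UMIs but under 5 of Ckm. Their levels were 1749 CPM for Myh8, 2212 for Myh3, 175 for Myh4, 362 for Casq1 and 152 for Myoz1.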

How the data were processed

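UMI counts per gene and barcode were used as the authors deposited them, as Cell Ranger writes them per the file headers. The submitters' processing notes name Cell Ranger 4.0, Seurat 3.2.3 (its role is not stated) and GRCm38.p6. Per the labels' protocols, 10x Genomics 3′ libraries were sequenced, and a MEF treatment text that repeats that of the iMPCs was set aside for the MEF sample's own treatment label. The iMPC matrix holds barcodes that are not cells. Cells were barcodes with at least 8036 UMIs (10% of the 99th percentile of the top 10000), at least 500 genes and at most 20% mitochondrial UMIs. The MEF matrix lists 6113 barcodes, and only the gene and mitochondrial filters were applied to it.

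The members, gene lists and comparison sets were chosen with earlier results of these data known. Each group is 1 library, so no test was made and cells were not used as replicates. UMIs were summed per set and divided by the set's total as CPM. Intervals are at 95%, exact Poisson for levels and Clopper-Pearson for shares, and cover counting error only. Genes that reached 10 CPM in the higher set were compared at a fold of 2. Named genes are the 5 markers, the 10 largest ratios in each direction against all other cells and against Ckm cells without Myh4 (at least 50 CPM, Ckm and Myh4 left out) and the list genes. Genes named from the correlation with Myh4 and outside these were chosen after their values were seen. Doublets were scored with Scrublet (scanpy 1.11.5, expected rate 8%) and kept. Ratios were tested on simulated counts. Alternatives changed cell filters, the member rule, scaling, depth, doublets and free RNA. Of 26100 gene identifiers, 25989 matched GENCODE M21 (GRCm38), the source of gene positions, and 3 listed symbols had no match. Python 3.11.15, numpy 2.4.6, scipy 1.17.1 and pandas 2.3.3 were used.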

Additional observations from a re-analysis of the deposited data

Results flagged for a closer look

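Myh4 RNA was found outside the filtered cells. In 48846 iMPC barcodes of 200 to 600 UMIs, which hold no filtered cell, Myh4 stood at 71.2 CPM (67.6 to 74.9, counting error only), beside 11.0 CPM in the filtered cells that are not members and 330 CPM in the Myh4-positive myocytes. In barcodes of 1 to 100 UMIs it stood at 41.2 CPM. Among members, the 67 cells with 2 Myh4 UMIs stood at 36.9 CPM and the 91 with 3 to 4 at 61.9 CPM, both under 71.2. The bins of 5 to 9, 10 to 19 and 20 to 181 UMIs stood at 114, 239 and 952 CPM. The part of free RNA in the members' Myh4 was not tested. In the MEF library 0 UMIs of Myh4 were counted over all filtered cells.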

How the results depend on the processing

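The log2 ratios of the genes named by rank and of the markers kept their direction under every alternative run. Against all other cells the direction of Myh4 and Ckm is set by the rule. The ranked genes were chosen as the largest ratios of the same data, so a kept direction is no independent support. Other genes were not recomputed under each. Several turn between CPM and UMIs per cell, among them Cdkn1c against all other cells. Against Ckm cells without Myh4 they include Cdkn1a, Mymk, Myh7 and Mybph. The share of filtered iMPC cells that are Myh4-positive myocytes (5.26%) was 6.76% with a minimum of 15000 UMIs, 4.46% with at most 10% mitochondrial UMIs, 6.46% without cells of 3 or more Dcn or Pax7 UMIs, 3.57% with at least 5 Myh4 UMIs, 2.52% with at least 20 Ckm UMIs, 1.06% with the rule on thinned counts and 3.38% with the rule on a random part of the UMIs. Their median depth (50436 UMIs) was 53951 with at most 10% mitochondrial UMIs, 53623 with at least 20 Ckm UMIs and 44424 with the rule on thinned counts. Of list genes at least 2-fold higher than in all other cells (129), 72 were counted within the quartiles of the members' depth, over 246 members and 588 others. Ckm, Myh4 and early Myh3 cells made a larger part of those 588 than of all other cells. Against Ckm cells without Myh4, the higher genes (37) numbered 86 in UMIs per cell, and the lower genes (12) numbered 21 within the depth quartiles and 4 in UMIs per cell. The other 58 values of these results stayed within their counting interval or within 1.5 times. Over named genes, 364 ratios moved by less than their interval and 446 by more, with their sign kept. Scaling by the median of gene ratios, which like UMIs per cell and leaving out cells of 3 or more Top2a UMIs was chosen after seeing the data, moves every log2 ratio to all other cells by 0.36. Levels under 10 CPM and shares at the thinned depth are limited by depth. No paired analysis was possible because each group is 1 library.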

Other observations

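Of the 11 measured stress and interferon genes, 1 was at least 2-fold higher and 2 lower in the Myh4-positive myocytes than in Ckm cells without Myh4, with a median log2 ratio of -0.01. Over all genes 4.70% were higher and 3.40% lower by that much. The lower genes were Gadd45b and Ddit3 and the higher gene was Fos. Gadd45b, a growth arrest gene, was 39.0 CPM in the Myh4-positive myocytes against 137 in Ckm cells without Myh4, and Ddit3, of the unfolded protein response, 20 against 66.6. Both were also lower in UMIs per cell, at 2.17 against 5.02 and 1.11 against 2.44. Fos was higher, at 102 against 46.8 CPM. Hspb1, a small heat shock protein gene abundant in muscle, was 1165 against 1044 CPM. The interferon-induced genes Isg15 and Ifit1 were at 0.914 and 0.183 CPM.

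Among ubiquitin ligase and kelch genes 2 of 10 were at least 2-fold higher than in Ckm cells without Myh4 and 0 lower, beside 4.70% and 3.40% of all genes. Fbxo32 (atrogin-1) was 16.2 against 6.01 CPM in Ckm cells without Myh4 and Klhl30 105 against 36.7, while Trim63 (MuRF1) was 63.2 against 52.8 and Trim55 60.6 against 98.1. Of the cell adhesion genes, Jam3 was 33.1 against 106 CPM, and 1.84 against 3.88 in UMIs per cell. Mstn (myostatin), a secreted inhibitor of muscle growth, was 107 CPM against 95.1 in Ckm cells without Myh4 and 27.8 in all other cells. These are values of 1 library, with no test.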
